A study of Mus musculus with 7 samples.

Results

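The comparison set stomach tissue grown from mouse embryonic stem (ES) cells, taken at day 42 of culture, against adult mouse lung. It was defined by its samples: 2 of the 7 arrays of the series, 1 per side. Total RNA from each sample was hybridised to a one-colour oligonucleotide array. The culture was ES cells differentiated toward stomach and kept in DMEM/F12 with N2/B27, EGF (50 ng/mL), FGF10 (100 ng/mL), Wnt3a, Noggin and R-spondin1 (250 ng/mL); neither the ES line nor a genotype was named. The lung was taken fresh from ICR mice, with no age beyond adult and no number of animals given. The other 5 arrays are used as a frame: a day 46 culture that spent its last 4 days with Shh (100 ng/mL) and Bmp4 (10 ng/mL), adult stomach, esophagus and intestine of ICR mice, and stomach of the embryo at E9.5 (embryonic day 9.5). The study set these tissues beside the culture as controls. With 1 array per sample no difference could be tested, so every comparison is a size, a count or a rank.

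Lung and stomach both bud from the foregut endoderm. In the adult lung, gas exchange takes place across thin alveolar type 1 cells that face a dense capillary bed, alveolar type 2 cells secrete surfactant, and club and ciliated cells line the airways. NKX2-1 is the transcription factor that marks the lung part of the foregut, and the stomach forms from a neighbouring stretch without it. A culture grown from ES cells in a dish has no blood flow, so vessels, circulating cells and organ-specific epithelium are the parts by which it can be set against an organ.

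Levels are log2 signals relative to each array's 75th percentile, and a difference is the day 42 level minus the lung level on that log2 scale. Of 17047 named genes, 78.3% were well above background on the day 42 array and 78.0% on the lung array. The comparison covered the 14088 genes above background on at least 1 of the pair, 12474 of them on both. A gene seen on 1 array was set against the detection limit of the other, which makes its fold a lower bound, written "at least". Probes spotted 10 times on an array had a median SD of 0.06 (day 42) and 0.09 (lung), and different probes of the same gene differed with an SD of 0.92 in the day 42 minus lung difference. A single gene within about 2-fold is therefore inside the spread between probes. The lung array carried the lung markers Sftpc, Sftpb, Scgb1a1, Ager and Cldn18 well above background. Of the stomach markers the day 42 array carried Tff1, Gkn2 and Pgc, with Muc5ac at -3.32 and Atp4b at -4.84. The 2 arrays lay on different slides and were read with different software versions; slide, software version and sample cannot be told apart.

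At least 4-fold differences were common. Of the genes compared, 1274 (9.04%) were at least 4-fold higher in day 42 tissue and 1517 (10.8%) at least 4-fold lower, 19.8% in all, while 7431 (52.7%) lay within 2-fold. The lower side reached further: 446 genes were at least 16-fold lower against 264 higher. Where such genes had other probes above background on both arrays, 594 of 659 probes (90.1%) pointed the same way. The balance of the counts rests on the scaling. With each array's median set to 0 in place of its 75th percentile, 2461 genes were at least 4-fold higher and 958 lower, so the share of higher calls went from 45.6% to 72.0%. That scaling moves the median difference of all genes from 0.21 to 0.86, and the values below are to be read against the 0.21.

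Lung was near esophagus in how closely it ranked with the culture. Over the 14088 genes of the pair, Spearman's rho between day 42 tissue and lung was 0.805. The same measure was 0.836 with adult stomach, 0.812 with esophagus, 0.788 with intestine and 0.743 with E9.5 stomach, each over the genes above background in that pair. Over 1 common set, the 15943 genes above background on any of the 7 arrays, lung was the second of the adult organs, at 0.853 against 0.865 for stomach, 0.849 for esophagus and 0.828 for intestine. The order of lung and esophagus thus depended on the gene set, and their values lay close together in both. The esophagus array itself carried lung transcripts, with Sftpc at 5.12 and Scgb1a1 at 5.44. The part of these transcripts in its rank was not tested. The day 46 culture was closer to day 42 than any organ, with a rho of 0.975. These values share the day 42 array and are across genes, which are not independent replicates.

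**Figure D1:**
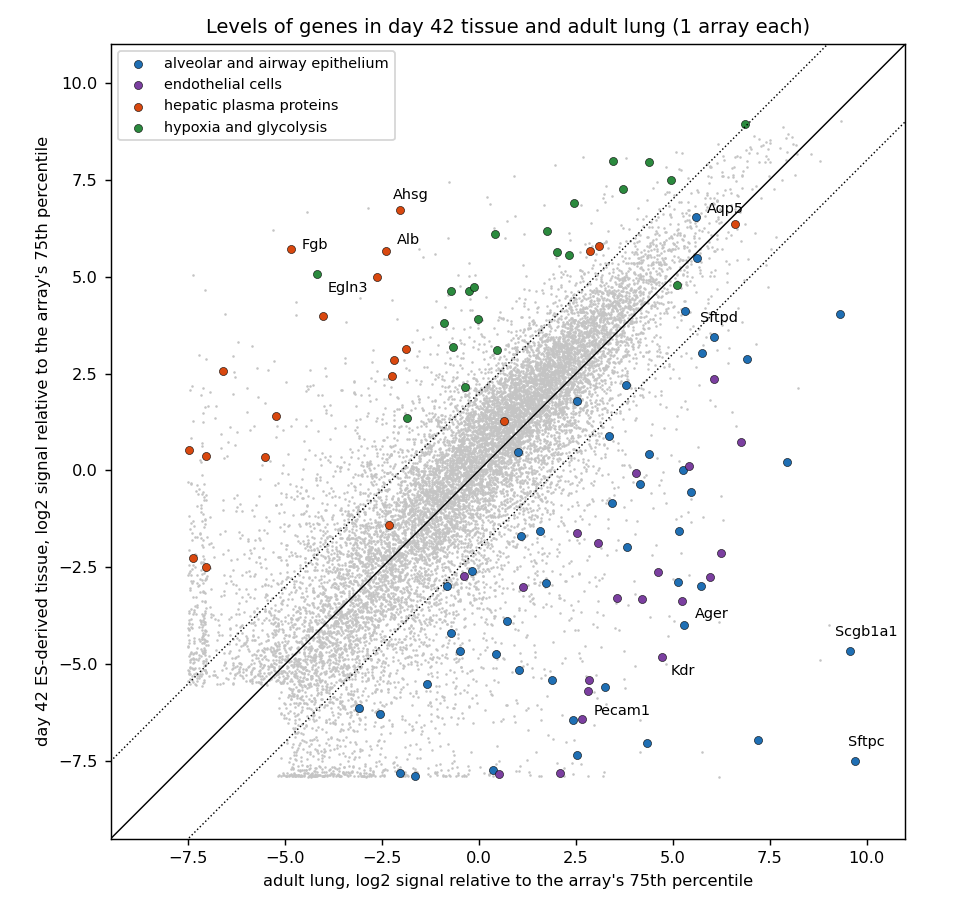
Each point is a gene, plotted by its level on the lung array (x axis) and the day 42 array (y axis), both in log2 units from the array's 75th percentile; the solid line marks equal levels and the dotted lines 4-fold differences. Genes of alveolar and airway epithelium and of endothelium lie mostly below the diagonal, with Sftpc and Scgb1a1 farthest, and genes of hepatic plasma proteins and of hypoxia and glycolysis lie mostly above it.

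The gas-exchange and airway epithelium stood far below lung in day 42 tissue, but its genes did not all do so. Of 12 genes of alveolar type 2 cells, 10 lay at least 2-fold below lung and none above, with a median of -3.72; over all genes compared, 21.4% lay that far below lung and 25.8% above, 47.3% in either direction. Of 10 genes of alveolar type 1 cells 9 were lower (median -3.99), of 13 club cell genes 12 (median -6.17), and of 11 ciliated cell genes all 11 (median -4.17). In RNA from a whole tissue, fewer cells of a type and less RNA per cell cannot be told apart. All 12 type 2 genes were highest in lung among the 7 arrays. Among the 4 adult organs alone lung was likewise the highest in all 12, against 26.6% of all genes compared.

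Surfactant protein C, the hydrophobic protein made by type 2 cells, stood furthest apart. Sftpc was at 9.71 in lung, not above background in day 42 or day 46 tissue or in E9.5 stomach, and at -0.74 in adult stomach, 5.12 in esophagus and -5.24 in intestine. It was at least 39705-fold lower in day 42 tissue than in lung. Sftpa1, a surfactant collectin, was at 7.21 in lung and not above background in day 42 tissue, at least 7002-fold lower. Sftpb, which spreads the surfactant film, was at 4.34 in lung and at least 963-fold lower, and the lung chemokine Cxcl15 at least 449-fold lower. Slc34a2, the phosphate carrier of type 2 cells, had a difference of -7.27. Other genes of the same cells lay nearer to lung, some of them still at least 2-fold lower. Sftpd, the surfactant collectin of host defence, was at 4.11 in day 42 tissue, 2.66 at day 46, 5.32 in lung, -4.38 in stomach and -1.23 in esophagus, and was not above background in intestine or E9.5 stomach. Its difference from lung was -1.20. Napsa, the aspartic protease that trims pro-surfactant, was at 2.22 in day 42 tissue and 3.80 in lung, against -2.88 in stomach, -1.49 in esophagus and -0.64 in intestine. Abca3, the lipid pump of the lamellar body, differed by -0.72 and the protease Ctsh by -0.14, both inside the spread between probes. Day 42 tissue thus held Sftpd and Napsa well above the other adult organs, while Sftpc, Sftpb and Sftpa1 were not above background.

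Upstream stretches of Sftpb and Sftpa1 are shown because the lung factor NKX2-1 is known to act on surfactant promoters and its own transcript differed here. The stretches are read 5′ to 3′ on the strand of the gene from RefSeq windows (build GRCm38.p6), and capitals mark CTCAAG, the core searched for NKX2-1, on either strand. Sftpb is chr6:72304500-72304609 on the plus strand, bases 110 to 1 before the start, and Sftpa1 is chr14:41131588-41131647 on the plus strand, bases 200 to 141 before it.
Sftpb: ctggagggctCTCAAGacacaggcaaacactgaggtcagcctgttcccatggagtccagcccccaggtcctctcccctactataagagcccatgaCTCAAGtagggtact
Sftpa1: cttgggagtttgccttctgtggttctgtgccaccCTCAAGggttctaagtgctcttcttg
In windows of 250 bases before to 50 after a start, CTCAAG occurred in 3 of the 8 type 2 genes with a window (Sftpb, Sftpa1 and Cxcl15) and in 3 of 10 club cell genes. It occurred in 18.0% of all genes with a window. The matches describe letters in these windows and nothing about binding.

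Among type 1 genes, Ager, the receptor that coats the type 1 cell surface, was at -3.98 in day 42 tissue and 5.29 in lung, a difference of -9.27, and between -6.13 and -1.32 on the other 5 arrays. Hopx differed by -6.71, and Col4a3, a basement membrane collagen of alveoli and glomeruli, was at least 61.3-fold lower. Aqp5, the water channel of type 1 cells that also serves glands, did not share this. It was at 6.55 in day 42 tissue and 1.65 at day 46, 5.59 in lung, -1.15 in stomach, -0.46 in esophagus and -0.79 in intestine, and not above background in E9.5 stomach. Day 42 tissue was the highest of the 7 arrays for it, 1.94-fold above lung.

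Club and ciliated cell genes were lower with 1 near-equal member, and airway basal cell genes were not: 4 of 6 of these were at least 2-fold higher and none lower (median 2.95), among them Krt5, Krt15 and Krt17, given with the keratins. Scgb1a1, the club cell secretoglobin, was at -4.64 in day 42 tissue and -4.26 at day 46, 9.57 in lung, 2.91 in stomach, 5.44 in esophagus, -3.27 in intestine and -3.95 in E9.5 stomach. Its difference of -14.21 was the lowest of any gene measured on both arrays. Cyp2f2, the club cell monooxygenase, differed by -7.74, Scgb3a1 by -8.03, and the airway mucin Muc5b by -6.17. Bpifb1, a secreted antibacterial protein of airway and gut glands, differed by -0.53 and was at 7.16 in adult stomach. Foxj1, the regulator that switches on motile cilia, was at -3.87 in day 42 tissue and 0.74 in lung, a difference of -4.61. The axonemal genes Ccdc113 (-5.15) and Tekt1 (-4.64) were lower with it.

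**Figure D2:**
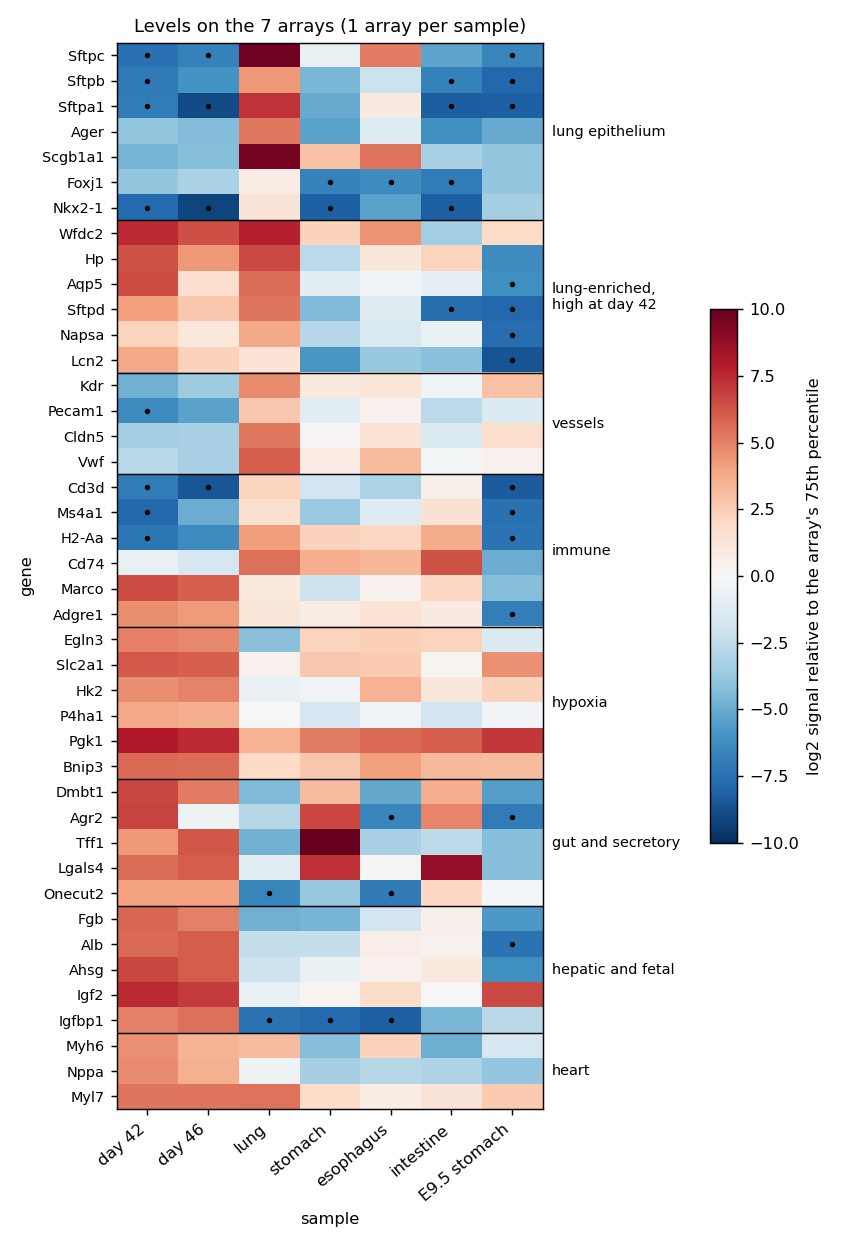
Colour gives the level (log2, from the 75th percentile of the array) of 42 genes in rows on the 7 arrays in columns, and a black dot marks a gene not well above background. The surfactant, endothelial and lymphocyte rows are red in lung and blue in both cultures, the rows from Wfdc2 to Lcn2 are red in day 42 tissue and lung, and the hypoxia, hepatic and fetal rows are red in the cultures and paler or blue in lung.

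Regulators of the foregut split along the same line. Nkx2-1 was at 1.29 in lung and not above background in day 42 or day 46 tissue, in adult stomach or in intestine; it was at -5.36 in esophagus and -3.33 in E9.5 stomach. It was at least 116-fold lower in day 42 tissue than in lung. Of 16 lung and foregut transcription factors 9 were at least 2-fold lower, among them the mesenchymal T-box genes Tbx3 (-4.25) and Tbx5 (-3.69, and -1.09 by its other probe), Tbx4 (at least 8.34-fold lower) and the lung mesenchyme factor Foxf1 (-2.99). Foxa2, a factor of all endodermal epithelia, differed by -0.08. Sox2, which marks foregut and proximal airway, differed by -0.89. Sox9, a progenitor factor of distal lung buds and of gut crypts, was 98.8-fold higher in day 42 tissue, at 2.19 against -4.44, and E9.5 stomach was at 1.85.

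Genes of alveolar fluid transport differed by kind, with 5 of 13 at least 2-fold lower and 2 higher. The epithelial sodium channel has 3 subunits in these data: Scnn1a differed by -5.02, Scnn1g was at least 369-fold lower and Scnn1b at least 114-fold lower. Cftr (0.66), Slc12a2 (0.64) and Slc26a9 (1.42), which carry chloride, were near or above lung. The water channels were split: Aqp1, of vessels, differed by -3.73 and Aqp4 by -2.26, while Aqp3 (1.13) and Aqp5 (0.95) were above lung. The list of 13 genes compared had a median of -0.86, which turned to 0.64 among genes above background on both arrays, so no direction is given for it. Lung xenobiotic enzymes stood lower: 11 of 16 cytochrome P450 and flavin monooxygenase genes, with a median of -3.50. Cyp4b1 differed by -8.71 and Fmo2 by -6.04, while Cyp1b1, a P450 found in many tissues outside the liver, was 6.95-fold higher.

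To ask what day 42 tissue kept of lung beyond marker lists, genes at least 8-fold higher in lung than in each of stomach, esophagus and intestine were taken. There were 254 such lung-enriched genes, 161 of them above background in day 42 tissue. Of the 254, 215 (84.6%) were at least 4-fold lower than in lung and the median difference was -4.13. The choice uses the lung level, so a lower value is what the choice favours. Over all genes compared, 10.8% were at least 4-fold and 21.4% at least 2-fold lower than in lung. Of all named genes, 78.3% were above background in day 42 tissue. A group of 19 of the 254 (7.48%) was within 2-fold of lung or higher, 9 of them higher.

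These 19 are known from several cell types. Wfdc2, a secreted protease inhibitor of airway and other gland epithelia, was at 7.48 in day 42 tissue, 6.44 at day 46, 7.81 in lung, 2.33 in stomach, 4.52 in esophagus, -3.45 in intestine and 1.93 in E9.5 stomach. Hp, the haemoglobin-binding haptoglobin of liver and lung, was at 6.37, 4.33 and 6.60 in day 42 tissue, day 46 tissue and lung, and between -6.27 and 2.23 elsewhere. Lcn2, an iron-sequestering defence protein, was at 3.89 in day 42 tissue and 1.38 in lung, 5.69-fold higher, and at -3.80 or lower in the other adult organs. The scavenger receptor Olr1 was 3.29-fold higher, and Hsd11b1, which reactivates glucocorticoids, 1.76-fold higher. Hilpda, a lipid-droplet protein induced by low oxygen, was at 4.98 in day 42 tissue and 4.43 in lung. Heart muscle genes were among them: Ankrd1 (7.48-fold higher), Mybpc3 (5.64-fold higher), Myl7 (-0.15) and the cardiac T-box gene Tbx20 (0.12). The extracellular protein genes Ltbp2 (-0.57), Matn4 (-0.69) and Ndnf (-0.30; -2.63 by its other probe) and the ligand Wnt7a (-0.68) stood just below lung. The remaining 5 were Aqp5, Ildr1 (-0.37), Mmp8 (-0.30), Ppp1r42 (-0.64) and Rasl11a (0.85).

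**Figure D3:**
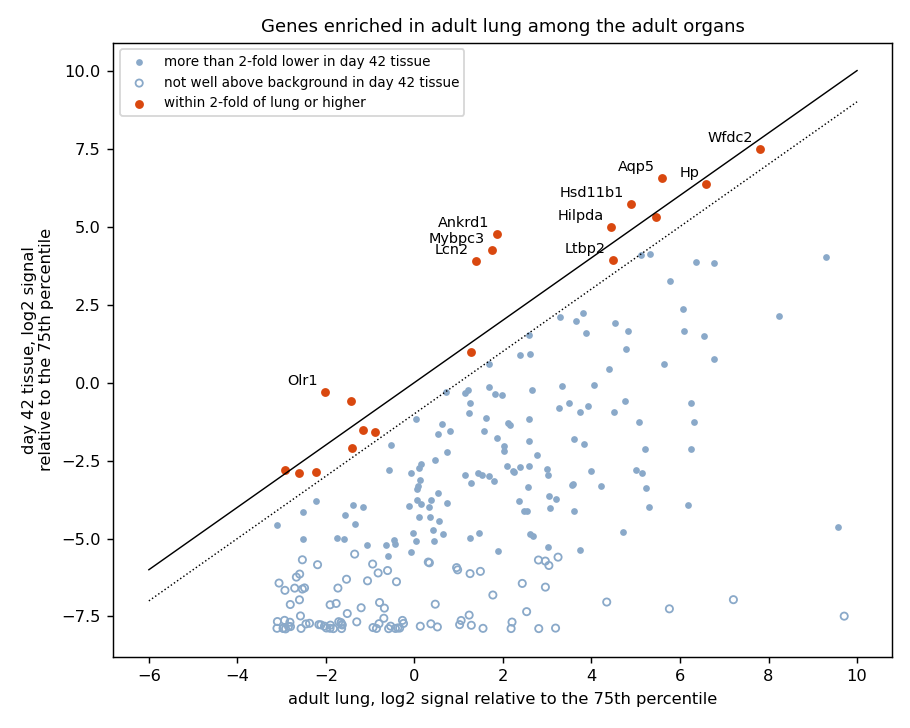
The 254 lung-enriched genes are plotted by lung level (x axis) and day 42 level (y axis), log2 from the 75th percentile; the solid line marks equal levels, the dotted line a level 2-fold below lung, and open circles genes not well above background in day 42 tissue. The 19 orange genes lie within 2-fold of lung or above it, with Wfdc2 and Hp at the highest levels.

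Blood vessels were the clearest gap. All 20 endothelial genes were at least 2-fold lower in day 42 tissue, with a median of -7.03, and all 20 were highest in lung among the 7 arrays. Among the 4 adult organs alone lung was likewise the highest in all 20, against 26.6% of all genes compared. Kdr, the VEGF receptor of endothelium, was at -4.80 in day 42 tissue and -3.53 at day 46, against 4.71 in lung, 0.96 in stomach, 1.23 in esophagus, -0.43 in intestine and 2.91 in E9.5 stomach. Day 42 tissue was the lowest of the 7, and its difference from lung was -9.51. Pecam1, a junction protein of endothelium, was at least 301-fold lower. Vwf (-8.70) and the endothelial claudin Cldn5 (-8.61) were lower too. The member nearest to lung was Nos3 (-2.36). Day 42 tissue was below all 4 adult organs in 15 of the 20 genes, against 22.4% of all genes compared.

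Capillary and guidance genes stood with the vessels. Of 14 lung capillary genes 13 were lower (median -4.70), including Car4, the carbonic anhydrase of aerocytes (at least 293-fold lower), Plvap (-6.80), Tmem100 (-6.68) and Gpihbp1 (-6.33). The signal to vessels was at a lung level. Vegfa was at 4.78 in day 42 tissue, 5.43 at day 46 and 5.12 in lung, and between 1.18 and 2.79 on the other 4 arrays. Its main probe differed by -0.33 from lung and its others by between -1.14 and 0.89. Genes of artery and sprout patterning were lower: Efnb2 (-6.47, and -2.38 by its other probe), Dll4 (-5.53), Hey1 (-4.69) and Angpt1 (-4.24). Red cell genes stood with these, 6 of 7 of them lower. Hba-a1, adult alpha globin, was at -4.90 in day 42 tissue and 8.78 in lung, and between 5.09 and 8.44 in the other adult organs. Its difference was -13.68; globin copies share sequence, so the probe may read more than 1. Alas2, the haem synthesis enzyme of red cells, differed by -8.91.

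Mesenchyme was present on both arrays and differed by kind. Of 15 lung fibroblast genes 11 were lower, with a median of -2.31: Limch1 (-8.67), Npnt (-7.56), Inmt, a methyltransferase abundant in lung (-6.09), and Ces1d (-5.37). Dcn, the collagen-binding proteoglycan of most fibroblasts, was 8.73-fold higher in day 42 tissue, and Pdgfra (-0.64), Pdgfrb (-0.09) and Col14a1 (-0.24) were near lung. Higd1b, a pericyte gene, was at least 269-fold lower, while the pericyte potassium channel gene Kcnj8 was 8.81-fold higher, or 2.10 on the log2 scale by its other probe. Of 11 smooth muscle genes 5 were lower and 1 higher. Tagln differed by -0.10, Acta2 by -0.66 and Myh11 by -1.32. Lung was the lowest of the 4 adult organs in 10 of the 11, against 29.4% of all genes compared. Day 42 tissue was below all 4 adult organs in 9 of the 11, against 22.4%. The median level of the list was 2.50 in day 42 tissue and 3.35 in lung, against 5.50 in stomach, 5.51 in esophagus and 6.39 in intestine. Mesothelial genes were mixed, with a median of 0.00 that was -0.04 after quantile normalization and -0.12 after normexp background correction: Wt1 was 16.3-fold and Msln 6.32-fold higher, and Lrrn4 (-4.13) and Upk3b (-2.63) were lower.

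Lymphocyte genes were mostly at background in day 42 tissue. Of 16 genes of T and NK cells, 15 lay at least 2-fold below lung (median -4.47), 10 of the 16 were not above background in day 42 tissue, and all 9 B cell genes were lower (median -4.46). Cd3d, a chain of the T cell receptor complex, was at 2.25 in lung, at least 226-fold lower in day 42 tissue. Ms4a1, which encodes CD20, was at least 144-fold lower. The antigen-presenting genes followed: 8 of 9 class II genes were lower, with H2-Aa at least 849-fold lower, the invariant chain Cd74 at -6.22 and the class II activator Ciita at least 92.2-fold lower. H2-Ab1, at 4.08 in day 42 tissue and 5.45 in lung, differed by only -1.38. Class I genes differed less, with 4 of 9 lower, from -2.18 for Psmb9 to -0.27 for H2-K1. Interferon-stimulated genes were lower in 10 of 13 cases (median -1.95), with Rsad2 at -5.51 and Ifit1 at -4.16.

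Macrophage genes went another way. Of 18 general macrophage genes 9 were at least 2-fold higher in day 42 tissue and 3 lower. Day 42 tissue was above all 4 adult organs in 12 of the 18, against 29.6% of all genes compared. Adgre1, which encodes F4/80, was at 4.68 in day 42 tissue, 4.27 at day 46, 1.17 in lung, 0.74 in stomach, 1.44 in esophagus and 0.93 in intestine, and not above background in E9.5 stomach. It was 11.4-fold above lung, or 0.94 on the log2 scale by its other probe. The complement genes C1qa (2.54), C1qb (2.99) and C1qc (2.70), the lipopolysaccharide co-receptor Cd14 (2.88) and the scavenger receptor Msr1 (2.78) were higher with it. Csf1r, the growth factor receptor of macrophages, differed by -0.03, though its other probes gave between -2.16 and -0.23. Genes of the alveolar macrophage stood lower in 9 of 13 cases and higher in 3: Ear1 (-7.45), Chil3 (-6.46), Itgax, which encodes CD11c (-6.28), and Siglecf (-4.23) were lower, while the lipid carrier Fabp4 (3.17) and the lipid regulator Pparg (1.22) were higher. Marco, a scavenger receptor for particles and bacteria, was higher too, at 6.56 in day 42 tissue and 5.99 at day 46, 0.94 in lung and 2.06 or lower on the other arrays, 48.9-fold above lung. Neutrophil genes were lower in 7 of 11 cases, with S100a9 at -8.19 and S100a8 at -5.10. Ltf, lactoferrin, which glands also make, was 19.5-fold higher.

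General and secretory epithelial genes were mostly above lung in day 42 tissue. Of 19 general epithelial genes 13 were at least 2-fold higher, with a median of 1.81: Cldn4 (4.52), Epcam (3.84) and Krt8 (2.82). Krt7, shared by lung and stomach-type simple epithelium, differed by -0.08. Of 16 secretory epithelium genes 11 were higher and 2 lower, with a median of 3.78. Dmbt1, a mucosal scavenger receptor that binds bacteria, had the largest difference of any gene measured on both arrays, at 6.68 in day 42 tissue, 5.21 at day 46, -4.43 in lung, 3.05 in stomach, -5.11 in esophagus, 3.64 in intestine and -5.54 in E9.5 stomach. That is 2204-fold above lung. Agr2, a mucin-folding protein of goblet and surface cells, was at 6.78 in day 42 tissue, -2.85 in lung and 6.66 in adult stomach, and at -0.54 in the day 46 culture. Spdef, its regulator in secretory cells, was 47.2-fold higher, and Gpx2, the gut glutathione peroxidase, 18.7-fold.

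Stomach genes were above lung in part. Of 11 gastric surface cell genes with a probe, 4 were above background on neither array. Of the 7 compared, 5 were at least 2-fold higher and none lower, and 2 were above background in day 42 tissue alone. The surface list's median of 5.83 was 0.63 with no background filter. Of 9 gastric gland genes 5 were higher and 3 lower. Tff1, the trefoil peptide of gastric surface cells, was at 4.36 in day 42 tissue, 6.19 at day 46, -4.71 in lung, 10.44 in adult stomach, -3.24 in esophagus, -2.62 in intestine and -4.26 in E9.5 stomach. It was 537-fold above lung. Sult1c2 was 429-fold higher and Gkn2, a gastrokine, at least 64.7-fold higher, but Muc5ac, the surface mucin, differed by -0.89. Of gland genes, Gkn3 was 112-fold higher and above adult stomach, at 6.01 against 3.17. The pepsinogen Pgc was 91.8-fold and Tff2 4.36-fold higher. Atp4b, the acid pump subunit, was not above background in lung and at -4.84 in day 42 tissue, against 9.94 in adult stomach. Both Chia1, an acid chitinase made by stomach and lung, and Kcne2, a potassium channel subunit, were lower, by at least 851-fold and 178-fold. With these, the gland list of 9 genes had a median of 2.13 that became 0 in the authors' deposited table.

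Of 13 stomach and intestine transcription factors compared, 8 were at least 2-fold higher than lung and 2 lower. Of the 13, 9 were above background in day 42 tissue alone. Their median of 2.20 was 0.42 among genes above background on both arrays. Onecut2 was at 4.03 in day 42 tissue, 4.00 at day 46 and 2.10 in intestine, and not above background in lung, at least 590-fold higher than lung. Hnf4a (at least 14.8-fold) and the antral and duodenal factor Pdx1 (at least 4.55-fold) were higher too. Cdx2, the intestinal factor, was at -4.38 in day 42 tissue and -0.25 in lung, a difference of -4.13, and at 3.84 in intestine. Intestinal genes were mixed. Vil1 was 152-fold and Lgals4 106-fold higher, but Fabp2 (0.07) and Fabp1 (-1.22) were not, and the list's median of 1.49 turned to -0.57 among genes above background on both arrays. Claudins, which set the tightness of epithelial and endothelial junctions, parted by type. Cldn2, a pore-forming claudin of leaky epithelia, was at least 360-fold higher, and Cldn6, an embryonic claudin, at least 11.1-fold. Cldn18, expressed in both lung and stomach, differed by -6.95 and was at 3.53 in lung and 4.19 in adult stomach. Keratins of squamous and basal epithelium were also above lung, with Krt17 19.1-fold, Krt15 17.8-fold and Krt5 14.7-fold higher, while Trp63, the basal cell factor, was at least 1.21-fold higher, inside the spread between probes, at -4.90 against 1.38 in stomach and 2.19 in esophagus.

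Plasma protein genes of hepatocytes stood far above lung. Of 20 hepatic genes 17 were at least 2-fold higher and none lower, with a median of 5.29, and 7 were not above background in lung. Fgb, a fibrinogen chain, was at 5.71 in day 42 tissue, 5.00 at day 46, -4.84 in lung, -4.65 in stomach, -1.88 in esophagus, 0.49 in intestine and -5.72 in E9.5 stomach. It was 1501-fold above lung. Alb, serum albumin, was at 5.67 in day 42 tissue, 6.08 at day 46 and -2.41 in lung, 269-fold higher. The fetal serum proteins Ahsg (434-fold) and Afp (26.0-fold), the fibrinogen chain Fgg (196-fold) and the apolipoprotein Apoa1 (at least 213-fold) were higher as well. Those nearest to lung were Hp (-0.23), Vtn (0.64) and Itih2 (0.93). Day 42 tissue was above all 4 adult organs in 14 of the 20, against 29.6% of all genes compared. No adult liver was among the samples. A broad list of complement and clotting genes was mixed, with 8 of 17 at least 2-fold higher and 6 lower. Prothrombin, F2, was 91.1-fold higher, while thrombomodulin of the endothelium, Thbd (-6.97), and the complement component Hc (-7.34) were lower.

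Of 15 heart muscle genes 14 were above background on both arrays. Of the 15, 11 were at least 2-fold higher in day 42 tissue and none lower (median 2.31). Nppa, the atrial natriuretic peptide, was 37.6-fold higher and Myl2, the ventricular light chain, at least 148-fold higher. Lung was not empty of them. Myh6, the atrial myosin heavy chain, was at 4.57 in day 42 tissue, 3.40 at day 46, 3.17 in lung, 2.30 in esophagus and -4.24 in stomach. Myl7, the atrial light chain, was at 5.31 and 5.47 in day 42 tissue and lung. Lung was the highest of the 4 adult organs in 7 of the 15 genes, against 26.6% of all genes compared. In mice cardiac muscle sheathes the pulmonary veins; the source of these transcripts was not tested on either array.

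Extracellular matrix was higher in the culture and basement membrane was not. Of 18 matrix genes 14 were at least 2-fold higher and none lower (median 2.80). Lox, which cross-links collagen, was at 3.89 in day 42 tissue and -2.11 in lung. Osteopontin, Spp1, was 60.4-fold higher, versican, Vcan, 21.0-fold and Col1a1 14.3-fold. Other probes gave smaller values for some: 1.48 to 3.88 for Col1a1 and 1.28 for Vcan on the log2 scale. Sparc differed by -0.07 (1.32 by its other probe). Of 16 basement membrane genes 10 were within 2-fold (median 0.13), including Col4a1 (-0.07) and Lamc1 (0.43); Lama5 was 4.02-fold higher. Enzymes that cut matrix stood higher in 12 of 18 cases (median 2.30). Mmp7, the epithelial matrilysin, was at 6.21 in day 42 tissue, 3.32 at day 46, -0.17 in intestine and -5.45 in E9.5 stomach, and not above background in lung, stomach or esophagus. It was at least 2689-fold above lung. Mmp10 was at least 280-fold, Mmp3 34.7-fold and the inhibitor Timp1 30.7-fold higher, while Timp3, the matrix-bound inhibitor abundant in lung, differed by -2.82 and Timp2 by -1.93.

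**Figure D4:**
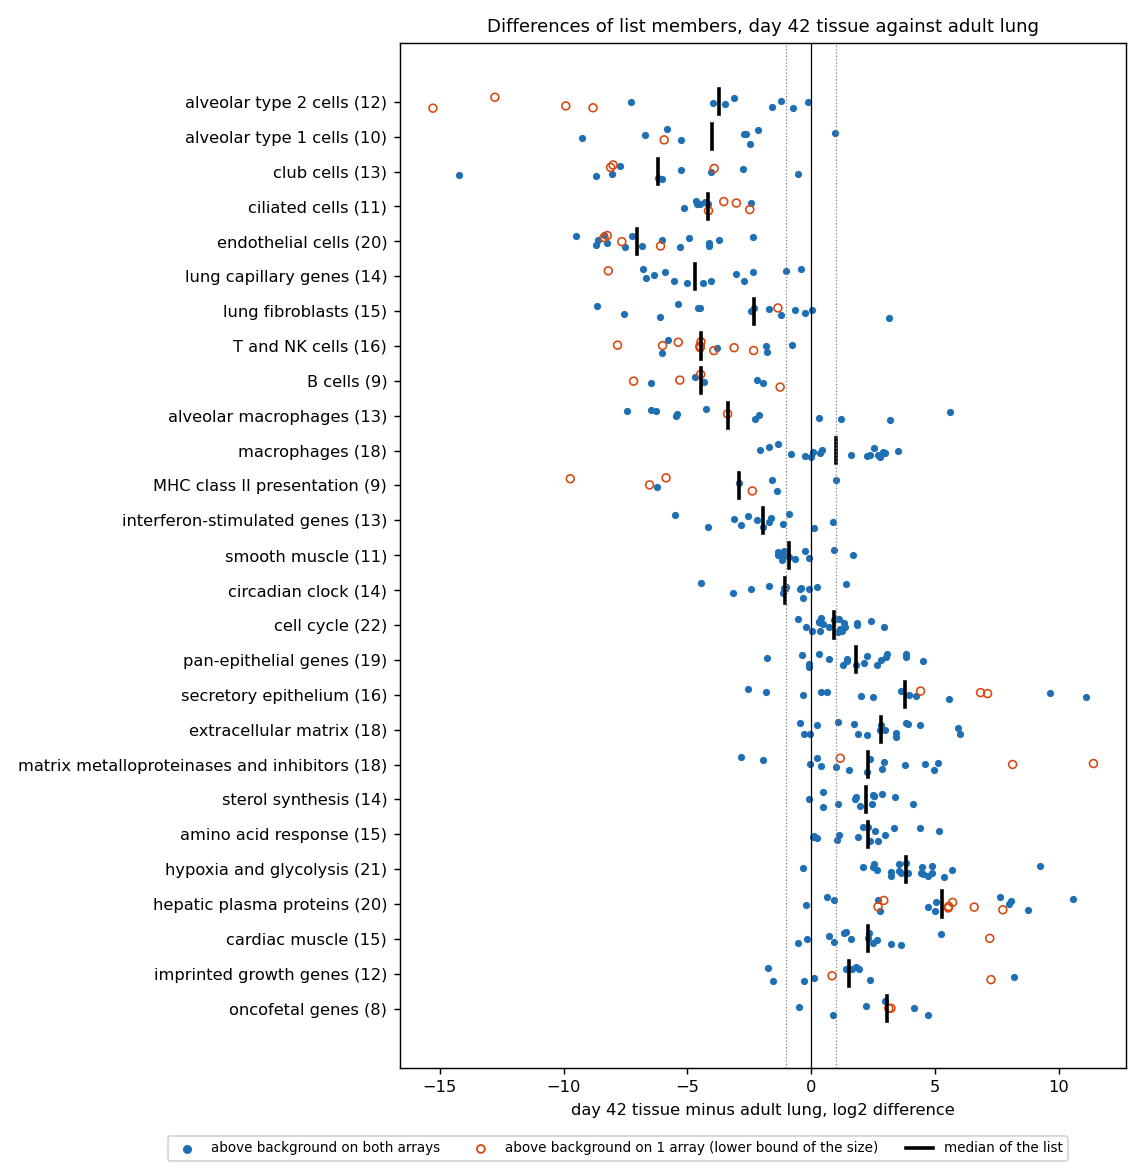
Each row is a gene list with the number of its genes compared in brackets; points are the log2 differences of its members, day 42 minus lung, open circles are lower bounds of the size, black bars are medians and dotted lines mark 2-fold. Endothelial cells have a median of -7.03 and hepatic plasma proteins of 5.29, and single members such as Aqp5 among type 1 genes and Marco among alveolar macrophage genes lie across 0 from most of their list.

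Genes of low oxygen and glycolysis were the most even group above lung. Cells short of oxygen stabilise the HIF transcription factors, which raise glucose uptake, glycolysis and collagen hydroxylation. Of 21 genes 20 were at least 2-fold higher in day 42 tissue, all 21 were above background on both arrays, and the median was 3.84. Egln3, the HIF prolyl hydroxylase, was at 5.06 in day 42 tissue, 4.82 at day 46, -4.18 in lung, 2.21 in stomach, 2.39 in esophagus, 2.19 in intestine and -1.46 in E9.5 stomach. It was 605-fold above lung. Slc2a1, the glucose transporter GLUT1, was at 6.10, 5.96 and 0.41 in day 42 tissue, day 46 tissue and lung, 51.4-fold above lung. Hexokinase 2, Hk2, was 41.2-fold higher, Ankrd37 28.9-fold, Car9 26.3-fold, Pgk1 23.1-fold, P4ha1 15.2-fold, Bnip3 12.3-fold and Ldha 5.78-fold. The exception was Vegfa, given above. Lung was itself low for these genes: it was the lowest of the 4 adult organs in 15 of 21, against 29.4% of all genes compared. Day 42 tissue was above all 4 adult organs in 15 of 21, against 29.6%. The distance from lung thus adds a high culture level to a low lung level.

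Promoter stretches of 5 of these genes are shown because nearly all of the group stood above lung and HIF is known to bind the core ACGTG. Capitals mark ACGTG on either strand; the 2 strands overlap where the letters read CACGTG. All are 5′ to 3′ on the strand of the gene, from RefSeq windows of build GRCm38.p6: Ldha chr7:46845654-46845783 (plus), Pgk1 chrX:106186940-106186999 (plus), P4ha1 chr10:59323236-59323295 (plus), Bnip3 chr7:138909577-138909636 (minus) and Slc2a1 chr4:119108665-119108724 (plus), all upstream of the start that the window is built on. For Ldha (46845804) and P4ha1 (59323296) that start lies inside the gene, past its annotated first base at 46842274 and 59323197.
Ldha: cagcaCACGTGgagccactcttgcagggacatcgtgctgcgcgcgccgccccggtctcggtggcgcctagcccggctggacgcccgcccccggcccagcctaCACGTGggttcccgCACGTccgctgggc
Pgk1: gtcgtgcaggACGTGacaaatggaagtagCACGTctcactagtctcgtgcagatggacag
P4ha1: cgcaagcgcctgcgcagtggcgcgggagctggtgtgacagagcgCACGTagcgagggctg
Bnip3: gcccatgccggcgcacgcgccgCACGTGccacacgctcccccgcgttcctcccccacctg
Slc2a1: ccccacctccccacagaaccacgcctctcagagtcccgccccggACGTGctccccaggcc
The core was found in 15 of the 20 genes with a window (75%), against 27.4% of the compared genes with a window and 21.8% of all genes with a window. The windows of the group had a median GC content of 63.9%, against 59.7% for compared genes, and the part of base composition in this share was not tested. Vegfa, which was at its lung level, also held the core.

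Other metabolic groups stood above lung by less. Of 15 genes of the amino acid response 12 were at least 2-fold higher (median 2.31), led by Ddit4, an mTOR inhibitor that low oxygen also induces (36.1-fold), and the amino acid transporter Slc7a5 (21.1-fold); the regulator Atf4 differed by 0.11. Of 14 sterol synthesis genes 11 were higher (median 2.21), with Mvd 17.1-fold. Oxidative phosphorylation genes were all at or above lung, from 0.07 to 1.70. Of the 18, 6 (33.3%) were at least 2-fold higher, near the 25.8% of all genes compared. Their median of 0.79 was 0.39 after quantile normalization, where the median of all genes was 0.25. Lung was the lowest adult organ in 17 of 18, against 29.4% of all genes compared. Day 42 tissue was above all 4 adult organs in none, against 29.6%. Metallothioneins, which bind zinc and copper, were higher: Mt2 was at 8.09 in day 42 tissue and 2.67 in lung (42.6-fold), and Mt1 15.0-fold. Haem oxygenase, Hmox1, was at 4.43 against 1.18 in lung, while extracellular superoxide dismutase, Sod3, which is abundant in lung, differed by -5.45.

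Growth genes of the fetus were mostly higher than in lung. Of 12 imprinted growth genes 7 were at least 2-fold higher and 2 lower, Plagl1 (-1.53) and Nnat (-1.76). Igf2, the imprinted fetal growth factor, was at 7.43 in day 42 tissue, 6.97 at day 46 and 6.60 in E9.5 stomach, and between -0.77 and 1.82 in the 4 adult organs, with lung the lowest. It was 293-fold above lung, and its other probe gave 8.26 on the log2 scale. Igfbp1, an IGF-binding protein of fetal liver and decidua, was at least 1186-fold higher, and the imprinted Notch ligand Dlk1 at least 153-fold. Of 8 oncofetal genes 6 were higher (median 3.06), with Hmga2 17.8-fold and Igf2bp1 at least 9.29-fold. The pluripotency genes Pou5f1 and Nanog were not above background on either array. Proliferation differed modestly: 10 of 22 cell cycle genes were at least 2-fold higher and none lower (median 0.94), with Ccne1 7.59-fold and Cdk1 5.36-fold, and Top2a at 0.41. E9.5 stomach was above both for Top2a, at 3.56 against -2.50 in day 42 tissue and -2.91 in lung.

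Signalling pathways were read through their targets and feedback genes. Of 16 Wnt and stem cell genes 8 were higher and 4 lower. Lgr5, the receptor for R-spondin on gut stem cells, was at 2.43 in day 42 tissue, 0.08 at day 46, -3.93 in lung, -0.50 in stomach and -1.83 in intestine, 82.6-fold above lung, and Ephb2 was 44.6-fold higher. Axin2, the general Wnt target, differed by -0.23, and the Wnt factor Lef1 by -4.06. Of 15 genes of FGF receptors and feedback 7 were lower and 3 higher, with a median of 0.03 that was -0.27 after normexp background correction and -0.26 with the mean over probes. Fgfr3 differed by -2.84 and the inhibitor Spry1 by -2.58. Etv4 was 39.1-fold higher, while Etv5 differed by -3.48 and -1.35 by its probes, Dusp6 by 0.76 and Spry4 by 0.03. Of 18 genes of BMP signalling 9 were lower and 3 higher, with a median of -1.20. Id3, a direct target, was at 0.15 in day 42 tissue, 3.83 at day 46 and 3.88 in lung, and from 1.87 to 3.94 on the other arrays, so day 42 was the lowest of the 7. Smad6 (-3.28) and Smad7 (-2.38), which feed back on BMP signals, were lower with it, and both were near their lung level at day 46, at 1.89 against 2.29 and 1.24 against 1.61. Id1 differed by 0.28. The BMP antagonist Grem1 was 31.4-fold higher. In the hedgehog pathway Shh was at least 8.38-fold lower and its target Ptch1 differed by -3.27, while Ihh was at least 19.7-fold higher.

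Hox genes, which record position along the body axis, were arranged by group number. Of 11 genes of groups 1 to 5 compared, 7 were at least 2-fold lower and none higher, with Hoxa5, a gene of lung mesenchyme, at -5.80 and Hoxb5 at -5.40. Of 15 genes of groups 6 to 13, 5 were higher, 4 lower and 6 neither, and their median of 0.47 turned to -1.50 among genes above background on both arrays, so they had no common direction. Hoxc9 (at least 28.4-fold), Hoxa11 (at least 18.5-fold) and Hoxa10 (at least 9.27-fold) were higher and not above background in any of the 4 adult organs. Hoxa7 (-2.70), Hoxb6 (-1.75), Hoxa6 (-1.66) and Hoxd9 (-1.34) were lower. Clock genes were lower in 8 of 14 cases (median -1.04). Per1 was at 6.10 in lung, 1.66 in day 42 tissue and 0.79 or lower in the other adult organs, a difference of -4.44, whereas Dbp differed by -0.08. Per1 also responds to glucocorticoid and to stimulation, and the hour of dissection was not given.

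There were 115 genes at least 8-fold higher in day 42 tissue than in each of the 4 adult organs, and 46 of them were not above background in lung. The choice sets day 42 tissue against lung, so absence from lung is what it favours. Of all named genes, 78.0% were above background in lung. All 115 were above background at day 46 and 84 in E9.5 stomach, though only 10 reached the day 42 level in E9.5 stomach. Of all 41174 probes, 34061 were above background at day 46 and 29773 in E9.5 stomach. The detection floors of these 2 arrays, -7.13 at day 46 and -6.43 in E9.5 stomach, were lower than the -5.57 of day 42. Being above background is therefore a weaker mark on them. Of the 115, the genes furthest above lung were Mmp7, Dmbt1, Fgb, Igfbp1, Ahsg, Cldn2, Cryaa (an eye lens crystallin, at least 336-fold), Igf2, Mmp10 and Alb. The Y-linked genes Eif2s3y and Ddx3y were also among the 115. They were at -0.56 and -1.64 in day 42 tissue and not above background in any of the 4 adult organs. The part of sex in the comparison was not tested. On the other side, genes outside the lists that stood furthest below lung included the beta globin Hbb-bt (-13.03), the kinase gene Stk32a (at least 2569-fold lower), Ptprb, an endothelial phosphatase (-10.10), Pcolce2, a collagen-processing helper (-9.83), and the lymphatic chemokine Ccl21c (-9.07). Near copies of Hbb-bt and Ccl21c may share their probes. Olfr894, an odorant receptor gene, was at least 3447-fold lower: its single probe was at 6.18 in lung and not above background on the other arrays with a value, esophagus having none.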

How the data were processed

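Total RNA of 7 mouse samples was measured on 7 one-colour Agilent arrays, 1 per sample. Feature Extraction was version 10.5 per the submitters' processing notes, and 10.7.3.1 (both cultures) or 10.5.1.1 (the other 5) per the file headers, which name 4 slides; the 4 adult organs shared a slide. The background-corrected intensity of each spot is as deposited, and the authors' deposited table holds log2 values whose medians and correlation with the scanner values show scaling to the 75th percentile. Here control and outlier spots were left out (131 outliers on the day 42 array, 728 on the lung array), spots were averaged per probe in log2, and levels were taken from the 75th percentile of the array. A probe was above background where at least 0.5 of its spots were marked so. RefSeq (GRCm38.p6) accessions named 24375 of 41174 probes and symbols 57 more; a gene with several probes was read from the one brightest on average. A gene above background on 1 array was set against the floor of the other (-5.57 for day 42, -5.18 for lung) or its own signal if higher. The number of arrays limits the precision. Named genes are the 12 largest and 12 smallest measured differences, the 8 largest bounds per side, per list up to 4 members and the member nearest 0, the lung-enriched and day 42-enriched genes described, and a set of markers; other list members (such as Sftpd, Napsa, Id3 and Cyp1b1) were chosen after their values were seen. All members, lists and rules were chosen with earlier results of these data known. The results were recomputed with quantile normalization, centring on the median, the authors' table, normexp (limma 3.58.1, R 4.3.3, offset 50), other background filters, the mean over probes, Pearson's correlation and other thresholds. The counting was tested on simulated data. Python 3.11.15 and pandas 2.3.3 were used.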

Additional observations from a re-analysis of the deposited data

How the results depend on the processing

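For large differences, direction was more stable than size. Of 331 named genes none was counted as reversed under median centring, quantile normalization, the authors' table or normexp. The same held with no background filter and with the mean over probes. The count passes over sign changes of small differences. Median centring turned the claudin median from -0.39 to 0.26, and this was not counted as a reversal. Many named genes were chosen for large differences, which favours a kept direction. Normexp moved the size of 110, no filter of 45 and the mean over probes of 29. With arrays centred on their median, 2461 genes were at least 4-fold higher and 958 lower, and 6430 and 1926 at 2-fold. With the 75th percentile, 3637 were at least 2-fold higher and 3020 lower. With no background filter the rank correlation with lung was 0.870. Lung-enriched genes within 2-fold of lung or higher numbered 11 with normexp and 61 with a 4-fold choice, and day 42-enriched genes not above background in lung numbered 15 with normexp. With genes above background on both arrays only, the median of intestinal epithelium reversed to -0.57. The same restriction gave -2.36 for type 2 cells, -2.72 for type 1 cells, 3.87 for airway basal cells, 0.42 for stomach and intestine transcription factors, -2.81 for T and NK cells, -1.33 for neutrophils, -1.58 for class II presentation, -7.93 for red cells, 3.38 for gastric surface cells, 3.06 for gastric gland cells, 2.51 for secretory epithelium, -1.50 for Hox groups 6 to 13, -0.23 for neurons and glia and 0.64 for alveolar fluid transport. Fewer genes enter these medians. Normexp gave -2.80 for ciliated cells, 1.97 for airway basal cells, 1.06 for stomach and intestine transcription factors, -6.09 for endothelium, -2.13 for alveolar macrophages, -2.79 for T and NK cells, -3.33 for B cells, -2.39 for red cells, 3.88 for gastric surface cells, 0.33 for intestinal epithelium, 4.16 for hepatic proteins, -2.21 for cytochrome P450 and flavin monooxygenases and 2.05 for oncofetal genes; its offset draws dim signals together. No filter gave -5.60 for T and NK cells, -5.93 for red cells and 0.63 for gastric surface cells. The mean over probes gave -5.51 for type 2 cells, and the authors' values gave a median of 0 for gastric gland cells; the cause was not tested. No paired analysis was possible because each group has 1 sample. Below background only bounds exist: 791 genes were above it in day 42 tissue alone and 823 in lung alone.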

Other observations

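Several further gene groups differed in parts. Lipid handling was split: the fatty acid receptor Cd36 was -5.60 and the cholesterol exporter Abcg1 -5.40 from lung, while lipoprotein lipase, Lpl, was 2.03 above it. Of 14 genes of the unfolded protein response 6 were at least 2-fold higher and 1 lower, with the chaperone Hspa5 at 1.67 and Edem1 at -2.07. Of 17 genes of the NRF2 and glutathione group 10 were higher, with the quinone reductase Nqo1 at 2.91, and 4 lower. In the IGF axis the protease Pappa, which frees IGF from its binding proteins, was 3.83 above lung, and the binding proteins Igfbp2 (-2.45) and Igfbp6 (-2.17) were below it. The cell cycle inhibitor Cdkn1a was 3.38 above lung. Immediate early genes, which respond within minutes to handling, were 3 higher and 6 lower of 15, with Nr4a1 at -1.69 and Atf3 at 1.90. Neuronal and glial genes were 5 lower and 1 higher of 8, with Stmn2 at -3.45 and S100b at 3.13.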
